A study of Mus musculus with 20 samples.

Results

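The 10 glycolytic enzyme genes described here are Hk1, Gpi1, Pfkp, Aldoa, Tpi1, Gapdh, Pgk1, Eno1, Ldha and Ldhb, chosen by gene symbol from the 45700 genes of a deposited expression table. RNA-seq of total cytoplasmic RNA (the transcriptome) and POL-seq of polysomal RNA (the translatome) were performed on whole brains of mice on a congenic FVB background. SMA mice carried the “Taiwanese” genotype (Smn-/-; SMN2tg/0), in which both copies of the mouse Smn gene are mutant and a human SMN2 transgene is present. Their control littermates were heterozygous for Smn and, by the study's methods, carried the same transgene. Brains were collected at postnatal day 5 (early-symptomatic, 2 libraries per genotype and fraction) and day 7 (late-symptomatic, 3 libraries per genotype and fraction), 20 libraries in all. Expression was deposited as FPKM, the number of fragments scaled to the exon length of the gene and to the size of the library. The table holds no counts, so the depth behind a value is unknown and no counting interval is given. Defining markers of neurons (Stmn2, mean 1175.8 FPKM), astrocytes (Slc1a3, 110.5 FPKM) and oligodendrocytes (Mbp, 143.3 FPKM) were present, as the labelled tissue requires. Smn1, the gene that distinguishes the genotypes, was 9.71 and 8.92 FPKM for control and 9.55 and 10.09 FPKM for SMA in early-symptomatic total RNA, and the genotypes overlapped in all 4 comparisons. The part of SMN2 transgene reads in this row was not tested, so it does not check the labels.

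Glycolysis splits glucose into pyruvate in the cytosol. Its early steps spend ATP to phosphorylate and cleave the sugar, and its later steps return ATP and NADH. Lactate dehydrogenase then converts pyruvate to lactate and regenerates NAD+. In the brain, neurons and astrocytes both run the pathway, endothelial cells and astrocytes pass glucose and lactate between blood and neurons, and several steps are shared between isoenzymes of different cell types. Many of these genes are known targets of the hypoxia-inducible factors, which bind the motif ACGTG or GCGTG.

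Positions are given on GRCm38 from the GENCODE M21 annotation, and each FPKM value covers all exons of the gene. Hk1 (ENSMUSG00000037012.16, chromosome 10, 62268855 to 62379908, minus strand) encodes the main brain hexokinase, which phosphorylates glucose. Gpi1 (ENSMUSG00000036427.4, chromosome 7, 34201330 to 34230336, minus strand) encodes glucose-6-phosphate isomerase. Pfkp (ENSMUSG00000021196.11, chromosome 13, 6579768 to 6648777, minus strand) encodes the platelet-type subunit of phosphofructokinase, the committed and most regulated step. Aldoa (ENSMUSG00000030695.11, chromosome 7, 126795234 to 126800751, minus strand) encodes aldolase A, which cleaves fructose bisphosphate. Tpi1 (ENSMUSG00000023456.12, chromosome 6, 124810586 to 124814296, minus strand) encodes triosephosphate isomerase, which interconverts the cleavage products. Gapdh (ENSMUSG00000057666.16, chromosome 6, 125161715 to 125166467, minus strand) encodes the dehydrogenase that makes NADH. Pgk1 (ENSMUSG00000062070.10, chromosome X, 106187100 to 106203699, plus strand) encodes phosphoglycerate kinase, an ATP-making step. Eno1 (ENSMUSG00000063524.11, chromosome 4, 150236721 to 150248879, plus strand) encodes the non-neuronal enolase. Ldha (ENSMUSG00000063229.12, chromosome 7, 46841475 to 46855627, plus strand) and Ldhb (ENSMUSG00000030246.9, chromosome 6, 142490249 to 142507957, minus strand) encode the subunits of lactate dehydrogenase. Hk1, Gpi1, Pfkp, Aldoa, Tpi1 and Gapdh each overlap 1 gene on the opposite strand (Hk1os, Gm26762, Pitrm1, Fam57b, Spsb2 and Iffo1). The library kit marks strand, but the study ran all programs with default settings, which in Tophat do not use strand, so reads from exon sequence that a gene shares with its opposite-strand partner cannot be told apart. In GENCODE M21 the shared sequence was 0.67% (Aldoa) to 11.5% (Gpi1) of the exon bases of these 6 enzymes and 5.58% for Pfkp. The partners' own mean levels over the 20 libraries were 0.94 FPKM (Gm26762) to 20.06 FPKM (Fam57b), with Pitrm1 at 8.77 FPKM.

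The RefSeq promoter windows of the genes that passed the threshold in a genotype comparison (Pfkp, Tpi1 and Ldha) run from 250 bases before to 50 after the annotated start, on GRCm38.p6 and written 5′ to 3′ on the gene's strand. The windows are chr13:6648722-6649021 (minus) for Pfkp, chr6:124814109-124814408 (minus) for Tpi1 and chr7:46845554-46845853 (plus) for a start of Ldha inside the annotated gene. Capitals mark every match to ACGTG or GCGTG on either strand, so that CACGT and CACGC stand for matches on the opposite strand.
Pfkp: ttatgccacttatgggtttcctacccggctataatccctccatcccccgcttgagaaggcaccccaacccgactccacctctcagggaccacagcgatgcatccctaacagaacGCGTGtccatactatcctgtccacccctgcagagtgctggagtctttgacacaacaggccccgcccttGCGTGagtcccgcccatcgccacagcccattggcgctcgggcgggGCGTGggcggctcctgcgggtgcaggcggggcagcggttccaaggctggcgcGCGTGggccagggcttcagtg
Tpi1: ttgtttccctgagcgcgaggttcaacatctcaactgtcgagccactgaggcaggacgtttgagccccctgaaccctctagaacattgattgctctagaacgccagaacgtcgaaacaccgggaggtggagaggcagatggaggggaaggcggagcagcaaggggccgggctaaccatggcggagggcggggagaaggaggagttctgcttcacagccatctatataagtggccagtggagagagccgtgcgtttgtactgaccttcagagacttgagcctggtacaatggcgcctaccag
Ldha: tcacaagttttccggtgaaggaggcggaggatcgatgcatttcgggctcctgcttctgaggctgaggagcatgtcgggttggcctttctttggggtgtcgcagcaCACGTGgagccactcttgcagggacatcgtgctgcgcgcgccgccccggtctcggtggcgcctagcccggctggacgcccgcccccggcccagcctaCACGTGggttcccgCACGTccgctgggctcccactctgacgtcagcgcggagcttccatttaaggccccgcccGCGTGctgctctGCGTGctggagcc
The Ldha window held 5 matches to ACGTG and 2 to GCGTG, and 2 copies of the palindrome CACGTG, each of which counts as ACGTG on both strands. Another Ldha window of RefSeq, chr7:46846832-46847131 (plus), held 2 matches to GCGTG and none to ACGTG. The Pfkp window held 4 matches to GCGTG and none to ACGTG, and the Tpi1 window held neither. Of 32851 mouse promoter windows of this length, 19.6% held ACGTG, 32.4% held GCGTG, 43.8% held either and 7.15% held CACGTG. RefSeq listed 16 windows for the 10 genes, of which 6 held ACGTG, 9 held GCGTG, 12 held either and 1 held CACGTG. Some windows of 1 gene overlap, and by the window farthest upstream of each gene 6 of the 10 genes held either motif and 3 held ACGTG. A match describes the letters of the window and does not show binding.

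All 10 genes were abundant and none was listed at 0 in any library. Gapdh had the highest mean over the 20 libraries at 402.6 FPKM, followed by Aldoa at 357.5, Eno1 at 249.1, Tpi1 at 188.5, Ldha at 187.0 (mean FPKM each) and Ldhb at 158.3 FPKM. Pfkp (103.4 FPKM), Gpi1 (102.0 FPKM) and Pgk1 (94.6 FPKM) were close to each other, and Hk1 was lowest at 64.8 FPKM. Among 13101 protein-coding genes tested, Gapdh ranked 154 and Hk1 1369 by mean FPKM. In the late-symptomatic control transcriptome, the genes next to each other by their level in those libraries whose ranges overlapped were Ldha with Tpi1 and Pfkp with Pgk1. Pfkp varied most between libraries, from 50.53 to 201.55 FPKM, a ratio of 3.99. Aldoa varied least, from 305.01 to 449.5 FPKM, a ratio of 1.47. Control replicate 1 of the early-symptomatic translatome stood apart, with the lowest Gapdh (223.07 FPKM) and the highest Tpi1 (303.02 FPKM) and Pgk1 (150.51 FPKM) of the 20 libraries.

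**Figure D1:**
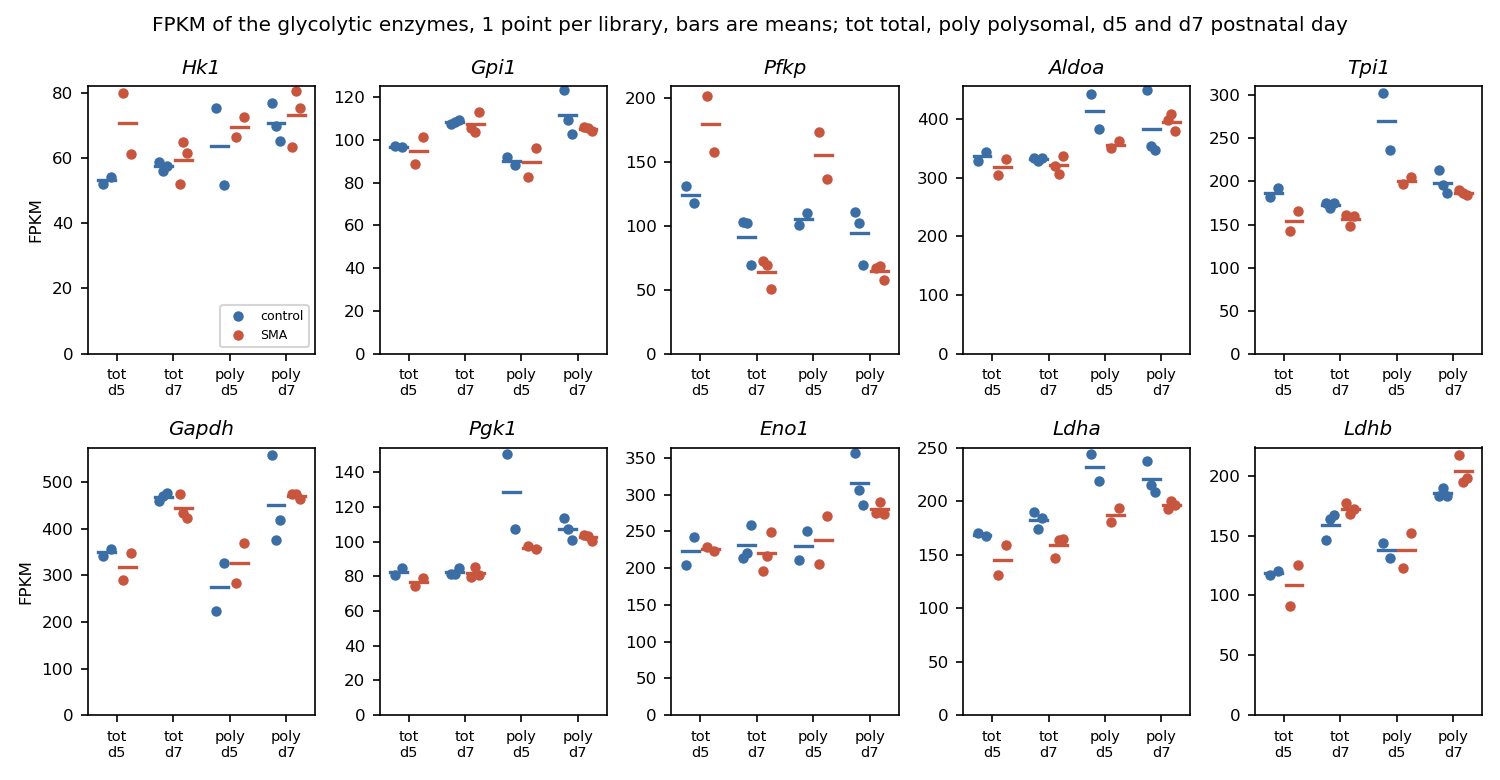
FPKM of each gene (y axis, from 0) in the 20 libraries, by RNA fraction and postnatal day (x axis), with control in blue, SMA in red and bars at the group means. Pfkp is above control in the SMA libraries of day 5 and mostly below control at day 7, and Ldha is below control in SMA in all 4 pairs of groups.

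The genotypes were compared with limma on log2(FPKM + 0.1) over the 15247 genes that averaged 1 FPKM or more across the libraries, and all 10 enzymes passed this filter. A gene was called at an unadjusted p under 0.05, the study's threshold. Of the 10 genes, 1 was called in early-symptomatic total RNA, where 8.25% of all tested genes were, and 1 in polysomal RNA of that stage (12.5% of all genes). In the late-symptomatic brain, 2 were called in the transcriptome (9.54% of all genes) and 2 in the translatome (10.7% of all genes). After Benjamini-Hochberg adjustment over all tested genes, no enzyme passed 0.05 in any of these 4 limma comparisons, where 0.164%, 0.649%, 0.111% and 0.0918% of all genes did (early total, early polysomal, late total and late polysomal). The median log2 change of the 10 genes was −0.09 in total and −0.01 in polysomal RNA early, and −0.06 and −0.07 late, against medians of 0.01, −0.01, 0.00 and 0.00 over all tested genes. Both early-symptomatic medians turned positive after quantile normalization (0.01 and 0.11) and after a correction for transcript length (0.05 and 0.07). The genes called were Pfkp, Tpi1 and Ldha, and they did not all move in 1 direction. These are bulk samples, in which fewer cells of a type and less RNA per cell cannot be told apart.

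**Figure D2:**
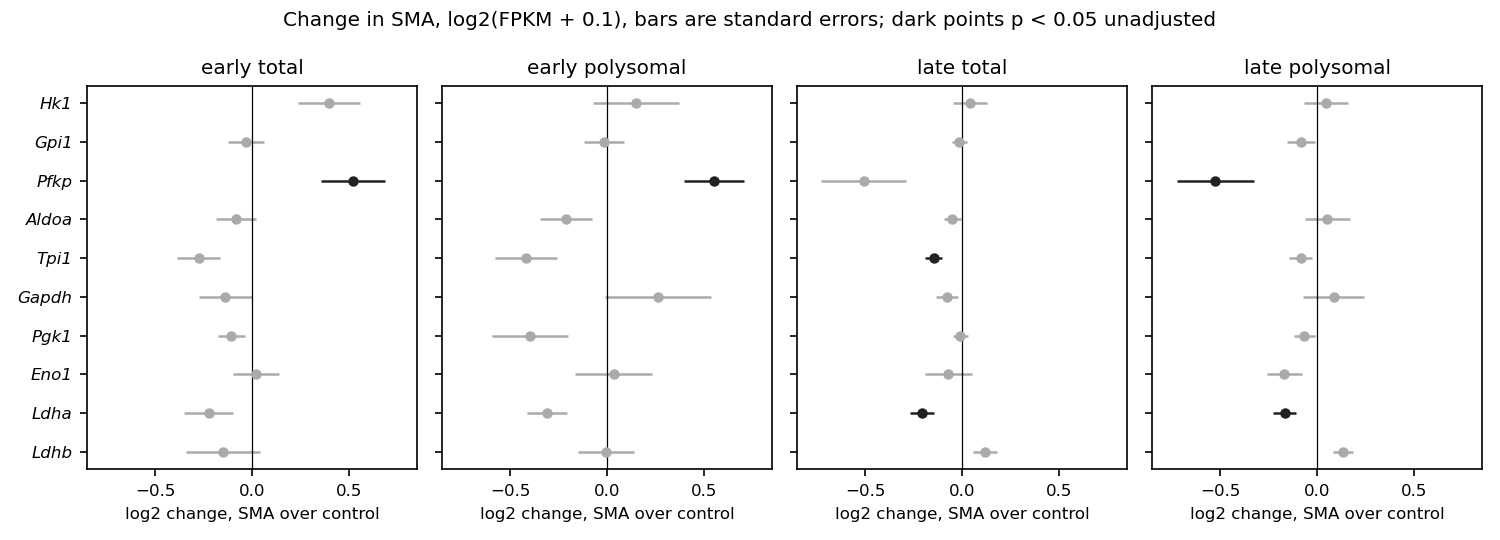
Log2 change of SMA over control (x axis) for the 10 enzymes (y axis) in the 4 genotype comparisons, with standard errors as bars and calls at an unadjusted p under 0.05 in black. The black points are Pfkp in both early-symptomatic fractions and the late-symptomatic translatome, Ldha in both late-symptomatic fractions and Tpi1 in the late-symptomatic transcriptome.

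Pfkp, the phosphofructokinase subunit, was higher in SMA brains at the early-symptomatic stage and lower at the late-symptomatic stage. In the early-symptomatic transcriptome, control libraries gave 131.06 and 117.33 FPKM, against 201.55 and 157.30 FPKM for SMA. In the translatome of the same stage the controls were at 100.13 and 110.17 FPKM and the SMA libraries at 173.08 and 136.63 FPKM. Every SMA library was thus above every control library of its fraction, as for 25.1% of all tested genes in total and 23.9% in polysomal RNA. Pfkp rose by a log2 of 0.52 (SE 0.16, limma adjusted p = 0.551) in the transcriptome and of 0.55 (SE 0.15, limma adjusted p = 0.386) in the translatome, 1.44 and 1.47 times the control mean FPKM. The transcriptome call was lost without control replicate 1 (log2 change of 0.60), control replicate 2 (0.44) or SMA replicate 1 (0.34), and the translatome call without the same replicates (0.48, 0.62 and 0.38).

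Late-symptomatic Pfkp in total RNA was 102.77, 102.06 and 69.28 FPKM for control and 72.30, 69.13 and 50.53 FPKM for SMA. The polysomal values were 110.64, 102.37 and 69.05 FPKM for control, and SMA had 66.80, 68.35 and 57.36 FPKM. Replicate 3 was the lowest of its group in both genotypes and fractions, and control replicate 3 fell within the SMA range in total RNA, while the polysomal groups did not overlap. Pfkp fell in the late-symptomatic translatome (log2 −0.53, SE 0.20, limma adjusted p = 0.453), and its log2 change in the transcriptome was −0.51 (SE 0.22, limma adjusted p = 0.545). Without control replicate 3 these changes were −0.73 and −0.70 and both were called, and without any of the other 5 polysomal libraries the polysomal call was lost, with changes from −0.57 to −0.39.

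The change of Pfkp between control and SMA differed between the stages at the unadjusted threshold. The interaction of stage and genotype was −1.03 on the log2 scale (SE 0.32, limma adjusted p = 0.486) in the transcriptome, where 10.1% of all genes were called, and −1.08 (SE 0.29, limma adjusted p = 0.287) in the translatome, where 13.7% were. No other enzyme was called in either test. Leaving out each of the 10 libraries in turn kept the call in the translatome, with changes from −1.28 to −0.90, and in the transcriptome it was lost only without SMA replicate 1 of day 5 (−0.85).

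**Figure D3:**
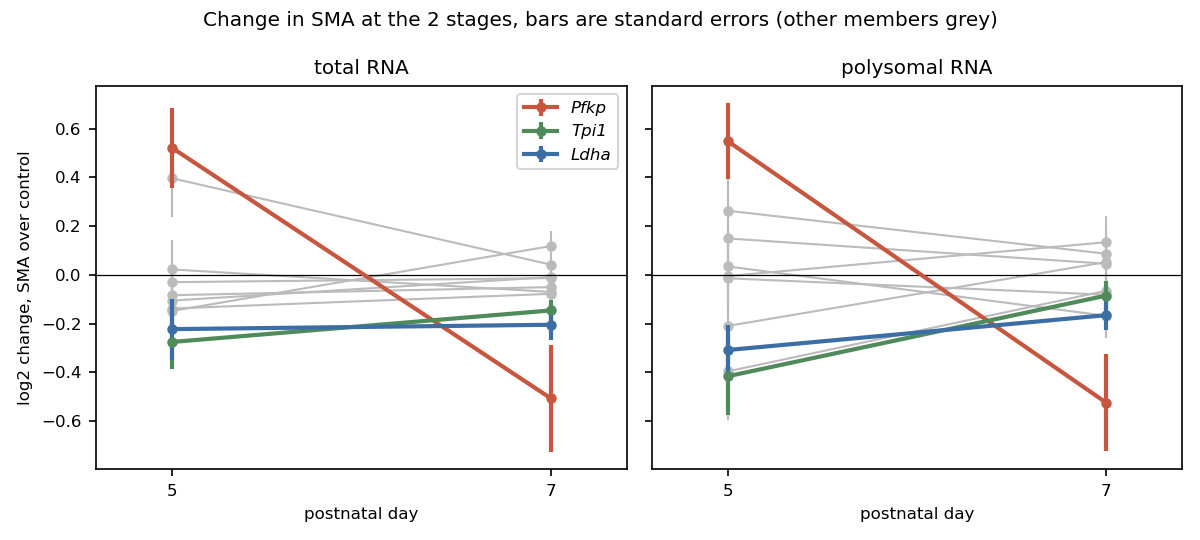
Log2 change of SMA over control (y axis) at postnatal days 5 and 7 (x axis), in total and polysomal RNA, with standard errors as bars. Lines join the same gene between stages and not the same mice. Pfkp goes from 0.52 to −0.51 in total RNA and from 0.55 to −0.53 in polysomal RNA, while Ldha is below 0 at both stages.

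The early-symptomatic values moved with transcript length. The 3791 tested genes with the longest transcripts (4673 nucleotides or more) had a median log2 change of 0.17 in the transcriptome and 0.15 in the translatome, and the 3791 with the shortest (up to 1837 nucleotides) −0.17 and −0.13. Pfkp has the longest transcript of the 10 genes at 8681 nucleotides, and Tpi1 (1607), Ldha (1815), Pgk1 (1825), Aldoa (1549) and Ldhb (1304 nucleotides) are all among the shortest. After a correction for length, the early-symptomatic change of Pfkp was 0.30 in the transcriptome and 0.35 in the translatome, so both calls were lost. At the late-symptomatic stage the medians of both length classes were between −0.02 and 0, and the corrected Pfkp changes were −0.50 in both fractions, and both were called. The interaction of stage and genotype kept its call after the correction at −0.80 in total and −0.85 in polysomal RNA.

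Pfkp is 1 of 3 phosphofructokinase genes, beside the liver-type Pfkl and the muscle-type Pfkm. In early-symptomatic total RNA it made up 61.1% ± 0.824 (SD, n = 2) of their summed FPKM in controls, against 69.7% ± 3.06 (SD, n = 2) with SMA, without overlap. The late-symptomatic shares in total RNA were 56.8% ± 4.70 and 50.0% ± 7.28 (SD, n = 3 per genotype), which overlapped. Early-symptomatic polysomal shares were 49.5% ± 6.98 for control and 63.0% ± 2.36 for SMA (SD, n = 2 per genotype), without overlap. Late-symptomatic polysomal shares were 53.9% ± 5.24 and 45.7% ± 3.76 (SD, n = 3 per genotype), which overlapped. None of these shares is corrected for transcript length. Pfkl fell in the SMA transcriptome at both stages, by a log2 of −0.26 (limma adjusted p = 0.551) and −0.35 (limma adjusted p = 0.484), and Pfkm was not called in any of the 4 genotype comparisons.

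Among the 10 genes, the remaining enzymes of the first steps (Hk1, Gpi1 and Aldoa) differed less than Pfkp. Hk1 in early-symptomatic total RNA was 52.13 and 54.20 FPKM for control, against 80.07 and 61.21 FPKM for SMA, without overlap (log2 0.40, SE 0.16, limma adjusted p = 0.551), and its groups overlapped in the other 3 comparisons. Gpi1, the isomerase, overlapped between genotypes in all 4. Aldoa was lower without overlap only in the early-symptomatic translatome, at 350.69 and 362.50 FPKM in SMA against 383.87 and 443.17 in control mice (log2 −0.21, SE 0.13, limma adjusted p = 0.504). Aldoc, the aldolase of astrocytes, is not among the 10 genes but shares this step. It rose in SMA brains in the transcriptome at both stages (log2 0.51, limma adjusted p = 0.551, and 0.77, limma adjusted p = 0.132) and in the late-symptomatic translatome (0.79, limma adjusted p = 0.153). The Aldoa share of aldolase FPKM in late-symptomatic total RNA was 73.5% ± 2.12 for control and 61.1% ± 2.29 for SMA (SD, n = 3 per genotype), and the groups did not overlap.

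Tpi1, triosephosphate isomerase, was lower in SMA brains without overlap in 3 of the 4 comparisons. These were early-symptomatic total and polysomal RNA and late-symptomatic total RNA, in which 22.5%, 26.6% and 7.37% of all tested genes were lower without overlap. Late-symptomatic total RNA held Tpi1 at 175.18, 169.68 and 174.75 FPKM for control and at 161.31, 148.33 and 160.11 FPKM for SMA, without overlap. It fell by a log2 of −0.15 (SE 0.04, limma adjusted p = 0.410). The early-symptomatic groups did not overlap either, with control total RNA at 181.41 and 191.89 FPKM and SMA at 142.88 and 166.18, and control polysomal RNA at 303.02 and 236.82 FPKM and SMA at 196.55 and 204.79. Neither early-symptomatic difference passed the threshold (log2 −0.28, SE 0.11, and −0.42, SE 0.16). Both are uncorrected for transcript length, and the class of shortest transcripts, which holds Tpi1, had medians of −0.17 and −0.13. In the late-symptomatic translatome the Tpi1 ranges overlapped and its log2 change was −0.09 (SE 0.06). The late-symptomatic call was lost without control replicate 1 (−0.14) or control replicate 3 (−0.14).

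Of Gapdh, Pgk1 and Eno1, the enzymes of the later steps, none was called between genotypes by limma at an unadjusted p under 0.05. Late-symptomatic Gapdh in total RNA was 469.2 ± 8.98 FPKM for control and 444.9 ± 27.1 FPKM for SMA, and in polysomal RNA 450.7 ± 95.8 and 471.8 ± 7.07 FPKM (SD, n = 3 per genotype). Its late-symptomatic log2 changes were thus −0.08 (SE 0.06) and 0.09 (SE 0.16). Pgk1 was lower without overlap at the early-symptomatic stage, at 80.62 and 84.67 FPKM in control total RNA and 74.46 and 79.15 FPKM in that of SMA (log2 −0.11, SE 0.07). Polysomal Pgk1 of that stage was 150.51 and 107.32 FPKM for control, against 97.36 and 95.66 FPKM for SMA (log2 −0.40, SE 0.20). These Pgk1 changes were not corrected for transcript length. Of all tested genes, 22.5% and 26.6% were lower without overlap in total and polysomal RNA of that stage. Late-symptomatic Pgk1 and Eno1 overlapped between genotypes in both fractions.

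Ldha, the lactate dehydrogenase subunit that predominates in glycolytic tissue, was lower in SMA brains in all 4 comparisons, with no overlap of the genotypes in any. Of all tested genes, 22.5% and 26.6% were lower without overlap in early-symptomatic total and polysomal RNA, and 7.37% and 8.24% in late-symptomatic RNA. By the study's methods total RNA was pooled from the profile fractions, so total and polysomal values may not be independent. In early-symptomatic total RNA Ldha was 169.91 and 167.47 FPKM for control, against 131.16 and 159.21 FPKM for SMA. In polysomal RNA of that stage it was 244.62 and 219.09 FPKM against 180.35 and 193.59 FPKM. The late-symptomatic transcriptome held 189.97, 174.46 and 183.98 FPKM for control and 146.89, 164.03 and 165.14 FPKM for SMA. The late-symptomatic translatome held 237.95, 215.08 and 208.89 FPKM for control and 192.72, 199.84 and 196.64 FPKM for SMA, so the highest SMA library was below the lowest control at each stage. Ldha fell in the late-symptomatic transcriptome (log2 −0.21, SE 0.06, limma adjusted p = 0.422) and translatome (−0.17, SE 0.06, limma adjusted p = 0.431), means 13.2% and 11.0% below control. The early-symptomatic log2 changes of −0.22 (SE 0.13) and −0.31 (SE 0.10) did not pass. These 2 values are not corrected for transcript length, and the class of shortest transcripts, which holds Ldha, had medians of −0.17 and −0.13. An exact two-sided permutation test on log2(FPKM + 0.1) cannot go below p = 0.1 with 3 libraries against 3 or p = 0.3333 with 2 against 2. Ldha was at these limits in each comparison, as any gene whose groups do not overlap must be, so the test adds nothing to the ranges. The transcriptome call was lost without control replicate 1 (−0.18) or 3 (−0.20), and the translatome call was lost without control replicate 2 or any of SMA replicates 1, 2 and 3 (−0.18 to −0.15).

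Ldhb, the subunit of oxidative tissue, went the other way at the late-symptomatic stage without passing the threshold. Control total RNA held 145.89, 164.08 and 167.12 FPKM and SMA total RNA 176.82, 168.30 and 171.90 FPKM (log2 0.12, SE 0.06, limma adjusted p = 0.595). Polysomal Ldhb was 182.66, 189.97 and 183.33 FPKM for control, against 217.30, 194.90 and 198.49 FPKM for SMA (log2 0.13, SE 0.05, limma adjusted p = 0.468). The genotypes did not overlap in either fraction of this stage, and they overlapped in both at the early-symptomatic stage.

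Across the 10 genes, ranges that did not overlap between genotypes numbered 5 in early-symptomatic total RNA and 5 in polysomal RNA, where 47.6% and 50.5% of all tested genes did not overlap. They numbered 3 and 3 at the late-symptomatic stage, against 15.0% and 16.1% of all genes.

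The balance of the lactate dehydrogenase subunits was shifted towards Ldhb in every SMA library of the late-symptomatic stage. The Ldha share of summed Ldha and Ldhb FPKM in total RNA averaged 53.5% (51.5% to 56.6%) for control and 47.9% (45.4% to 49.4%) for SMA, with n = 3 per genotype. The polysomal share was 54.3% ± 1.96 for control and 49.1% ± 1.89 for SMA (SD, n = 3 per genotype). The highest SMA library (49.4% in total and 50.6% in polysomal RNA) was below the lowest control library (51.5% and 53.1%). The exact permutation test gave p = 0.1 in both fractions, its lower limit, which groups of 3 without overlap always reach. At the early-symptomatic stage the shares were 58.2% and 59.2% for control and 55.9% and 59.0% for SMA in total RNA, which overlapped, and 62.5% and 63.0% against 56.0% and 59.4% in polysomal RNA, which did not.

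Near-identical pseudogenes bear on 3 of the genes. Gm5514, a processed pseudogene whose transcript was 98.0% identical to Ldhb over 1002 aligned bases, was listed at 44.70 and 42.04 FPKM in early-symptomatic control total RNA, and the FPKM of Ldhb and Gm5514 together was 161.56 and 162.37. The corresponding late-symptomatic sums were 163.75, 187.24 and 186.23 FPKM. Gapdh has 86 such pseudogenes, of which 83 are in the table and 3 had a mean of 1 FPKM or more, and Gm13394 (99.9% identical) had a mean of 91.2 FPKM, and Gm4735 matched Eno1 with a mean of 10.6 FPKM. When these copies were added to the enzymes, a step chosen after the values were seen, Ldhb rose in the late-symptomatic translatome of SMA brains (log2 0.16, at the unadjusted threshold), and its change in the transcriptome was 0.11, which was not called. The late-symptomatic Ldha share with Gm5514 included was 48.2% to 53.7% for control and 43.0% to 46.6% for SMA in total RNA, and 50.7% to 53.3% against 43.7% to 47.6% in polysomal RNA, again without overlap.

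**Figure D4:**
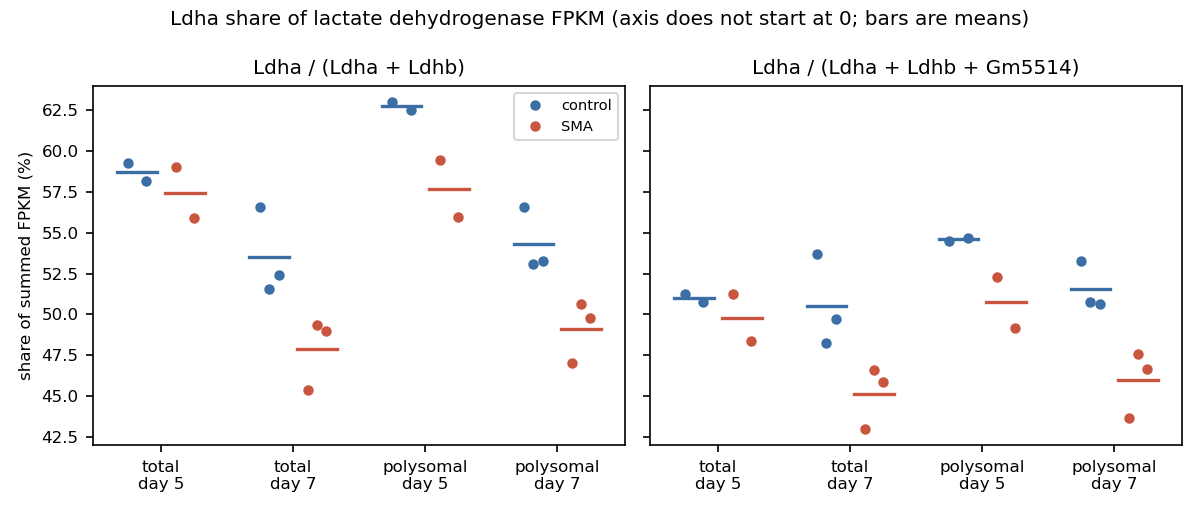
Ldha share of lactate dehydrogenase FPKM (y axis, in percent, not starting at 0) by fraction and postnatal day (x axis), without (left) and with (right) the near-identical pseudogene Gm5514 in the sum. Points are libraries and bars are means. The day 7 SMA libraries lie below the day 7 controls on both panels, while the drop of the controls from day 5 to day 7 in total RNA, from 58.7% to 53.5%, is from 51.0% to 50.5% on the right.

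Between postnatal days 5 and 7, control brains differed in 4 enzymes of the transcriptome, where 40.3% of all tested genes were called, and in 5 of the translatome (42.0% of all genes). After adjustment 3 and 1 remained, against 21.2% and 20.6% of all genes. In total RNA, Gapdh rose from 350.1 ± 10.5 (SD, n = 2) to 469.2 ± 8.98 FPKM (SD, n = 3), a log2 change of 0.42 (SE 0.05, limma adjusted p = 0.0161). Ldhb rose from 118.6 ± 2.45 (SD, n = 2) to 159.0 ± 11.5 FPKM (SD, n = 3), a change of 0.42 (SE 0.07, limma adjusted p = 0.0302). Gpi1 rose by 0.16 (SE 0.03, limma adjusted p = 0.0252) and Hk1 by 0.11 (SE 0.04, limma adjusted p = 0.0973). The 4 genes that rose compare with 20.1% of all genes that did. In polysomal RNA Gapdh (0.72), Eno1 (0.45), Ldhb (0.43) and Gpi1 (0.31) rose, as 20.7% of all genes did, and Tpi1 fell (−0.43), as 21.4% did, and only Ldhb passed adjustment (limma adjusted p = 0.0276). Hk1 in total RNA kept its call only without control replicate 2 of day 7, and the polysomal calls of Gapdh, Eno1 and Tpi1 were lost without control replicate 1 of day 5 (0.44, 0.33 and −0.26) and that of Gpi1 without either control library of day 5 (0.34 and 0.28). Omissions of day 7 control libraries also ended polysomal calls, of Gapdh without replicate 1 (0.55), 2 (0.84) or 3 (0.76), of Eno1 without 1 (0.36) or 2 (0.47), of Tpi1 without 2 (−0.42) or 3 (−0.39) and of Gpi1 without 2 (0.32). With Gm5514 added, the Ldhb changes were 0.14 in total and 0.10 in polysomal RNA, so neither was called. Gapdh with its copies added rose by 0.38 and 0.68 and kept both calls. Libraries of day 5 and day 7 also differed in the number of genes listed above 0, which was 26970 to 28070 in total RNA at day 5 and 23630 to 25060 at day 7, and the part of library differences in the stage changes was not tested.

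Several of the enzymes were more abundant in polysomal than in total RNA. TE, the translation efficiency, is here the log2 difference between polysomal and total FPKM, each scaled within its own library. The 10 most abundant genes of a library took 25.4% to 39.2% of all FPKM in total RNA and 9.18% to 16.6% in polysomal RNA, and the part of this in TE was not tested. In control mice the median TE of the 10 genes was 0.22 early and 0.21 late, against 0.02 and 0.05 over all tested genes. The early-symptomatic median was 0.0883 without control replicate 1, 0.3635 without control replicate 2 and 0.1132 after quantile normalization. At the early-symptomatic stage 3 genes were called, all higher on polysomes (12.3% of all genes were called in this direction), namely Pgk1 (0.62), Tpi1 (0.52) and Ldha (0.46). Between libraries with the same number, Pgk1 was 0.90 and 0.34 and Tpi1 0.74 and 0.30 in control replicates 1 and 2. With a replicate block in the fit, Pgk1 and Tpi1 were not called, at the same log2 differences. At the late-symptomatic stage 6 were called, again all higher (14.8% of all genes), namely Eno1 (0.45), Pgk1 (0.38), Hk1 (0.30), Ldha (0.27), Ldhb (0.22) and Tpi1 (0.20). Without control replicate 2 only Pgk1 kept its call, and Eno1 also lost it without control replicate 1 (0.31). Pgk1 was 81.29, 81.37 and 84.96 FPKM in late-symptomatic control total RNA from its lowest to its highest library, and 100.76, 107.34 and 113.91 FPKM in polysomal RNA. Of the 10 genes only Pgk1 passed adjustment (limma adjusted p = 0.0222), as 7.12% of all genes did. Aldoa, Gapdh, Gpi1 and Pfkp had no call in either direction by limma at an unadjusted p under 0.05, and early-symptomatic Gapdh had a TE of −0.38 (SE 0.23).

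The log2 ΔTE, the change of TE in SMA brains, was called for none of the 10 genes at either stage by limma, at an unadjusted p under 0.05 (2.32% and 2.07% of all genes were called). The median log2 ΔTE of the enzymes was −0.04 early and 0.01 late. The late-symptomatic values were between −0.10 (Eno1, SE 0.16) and 0.16 (Gapdh, SE 0.17). The early-symptomatic values were between −0.29 (Pgk1, SE 0.23) and 0.40 (Gapdh, SE 0.33), and such standard errors leave differences of this size not detectable.

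**Figure D5:**
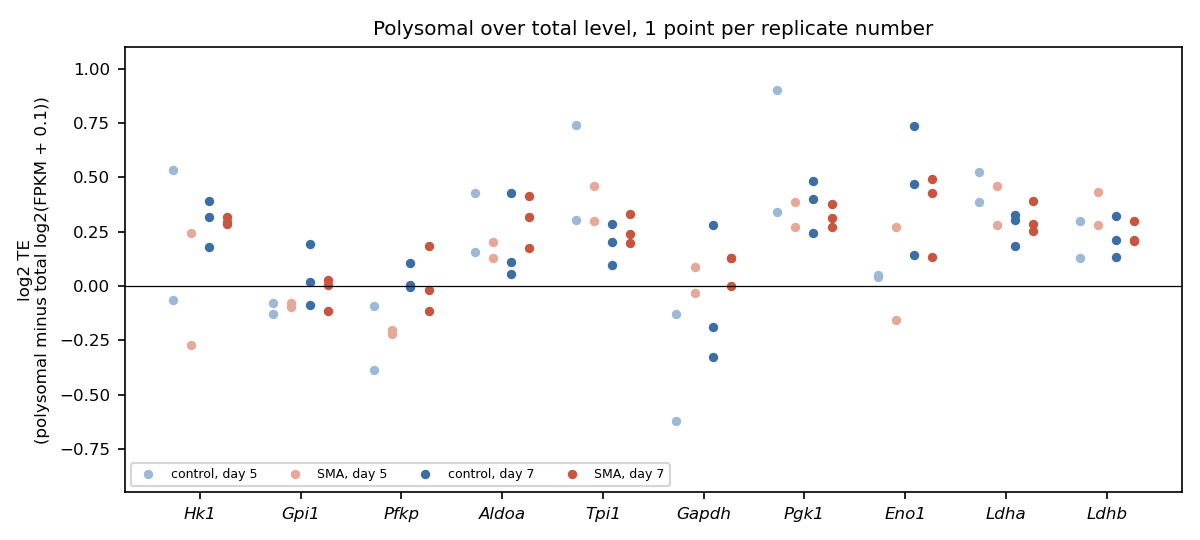
Log2 TE (y axis, polysomal minus total log2(FPKM + 0.1)) of the 10 enzymes (x axis), with 1 point per replicate number and colours for genotype and postnatal day. Libraries with the same number were subtracted for display, although the labels do not say that they share a brain. Aldoa, Tpi1, Pgk1, Ldha and Ldhb are above 0 at every point, and Gapdh is spread on both sides of 0.

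The rest of the pathway was read from lists of related genes. Of all tested genes, 4.36% rose and 3.89% fell in early-symptomatic total RNA, 5.65% and 6.82% in polysomal RNA of that stage, 4.84% and 4.7% in late-symptomatic total RNA, and 5.35% and 5.38% in polysomal RNA. Of 13 tested isoenzymes outside the 10 genes (of 21 listed), 1 rose and 1 fell in the early-symptomatic transcriptome, 1 fell in the translatome, 1 rose and 1 fell in the late-symptomatic transcriptome and 2 rose in the translatome. Beside Aldoc and Pfkl these were Pgam1, phosphoglycerate mutase (early-symptomatic translatome, log2 −0.23, limma adjusted p = 0.400), and Eno3, the muscle enolase (late-symptomatic translatome, 0.47, limma adjusted p = 0.423). Pkm, the pyruvate kinase of brain and the most abundant of this list with a mean of 211.2 FPKM, was not called between genotypes.

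The lactate carrier Slc16a1 and its chaperone Bsg fell in SMA brains at both stages. Of 8 tested genes of sugar and lactate transport (of 9 listed), 2 fell in each early-symptomatic fraction, 4 in the late-symptomatic transcriptome and 3 in the translatome, and none rose. None of the 8 passed adjustment in these 4 comparisons. Slc16a1, the monocarboxylate carrier MCT1, was 21.45, 24.79 and 22.57 FPKM in late-symptomatic total RNA of controls and 14.29, 14.64 and 12.60 FPKM in that of SMA brains, without overlap. Its log2 changes were −0.56 and −0.94 in early-symptomatic total and polysomal RNA and −0.72 and −0.85 in late-symptomatic total and polysomal RNA (limma adjusted p = 0.551, 0.359, 0.118 and 0.155). Bsg, the chaperone of this carrier, fell in all 4 comparisons by log2 changes from −0.48 to −0.15. In the early-symptomatic translatome, control replicate 1 was the highest library for both Slc16a1 (39.17 FPKM) and Bsg (370.16 FPKM). The early-symptomatic changes of these 2 genes were not corrected for transcript length. Slc16a7 fell in both late-symptomatic fractions (−0.28 and −0.36) and Slc16a3 in the transcriptome (−0.74). Neither was called at the early-symptomatic stage, where Slc16a3 had log2 changes of 0.45 (SE 0.28) in total and −0.23 (SE 0.12) in polysomal RNA. None of the 4 tested sugar transporters (Slc2a1, Slc2a3, Slc2a4 and Slc2a8) was called by limma at an unadjusted p under 0.05.

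Of 18 genes of flux control and mitochondrial entry, 3 fell and 1 rose in the early-symptomatic translatome, and 0 were called in the other 3 genotype comparisons by limma at an unadjusted p under 0.05. Mpc1 (log2 −0.62) and Mpc2 (−0.47), the subunits of the mitochondrial pyruvate carrier, and Pdhb (−0.30), of pyruvate dehydrogenase, fell, and Pdk2 (1.05), a kinase that inhibits that enzyme, rose. The interaction of stage and genotype in polysomal RNA was called for Mpc1 (0.73, SE 0.22) and Pdk2 (−0.97, SE 0.39) and not for Mpc2 (0.35, SE 0.17) or Pdhb (0.27, SE 0.12). In the side branches Pgls (−0.53) and Taldo1 (−0.65), of the pentose phosphate pathway, fell in the same comparison, 2 of 11 genes, and no gene of this list was called in the other 3. Control replicate 1 of this translatome, which stood apart in the enzymes, was the highest library of the 4 for all 5 genes that fell, with Mpc1 at 263.11 and 212.17 FPKM for control and 153 and 154.23 FPKM for SMA. The genotypes did not overlap in any of the 5, and these values were not corrected for transcript length. Of 3 tested gluconeogenesis genes, G6pc3 rose in the late-symptomatic translatome (0.21). Of 14 tested hypoxia response genes outside glycolysis, 0 were called in the early-symptomatic transcriptome by limma at an unadjusted p under 0.05, P4ha2 rose (0.76) and Bnip3 fell (−0.29) in the translatome, Bnip3l rose (0.22) in the late-symptomatic transcriptome, and P4ha1 fell in both late-symptomatic fractions (−0.30 and −0.37).

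Marker genes of vascular cells moved with the same comparisons. All 5 endothelial markers (Cldn5, Pecam1, Flt1, Cdh5 and Slco1c1) fell in both transcriptomes and the late-symptomatic translatome, and 3 in the early-symptomatic translatome. Cldn5, the most abundant, was 25.96, 30.10 and 34.46 FPKM in late-symptomatic total RNA of controls and 14.09, 15.46 and 14.22 FPKM in that of SMA brains, and the 5 markers summed to 56.66 to 71.08 FPKM against 33.64 to 37.38 FPKM. In early-symptomatic total RNA they summed to 88.26 and 79.85 FPKM for control, against 41.68 and 37.40 FPKM for SMA. Of 4 pericyte markers, 3 and 2 fell in the early-symptomatic fractions and 4 and 4 in the late-symptomatic ones, with Rgs5 at 32.14, 32.30 and 34.06 FPKM in late-symptomatic total RNA of controls and 12.99, 15.79 and 13.09 FPKM in that of SMA brains. The 3 tested choroid plexus markers rose in both late-symptomatic fractions, and Ttr, the most abundant, was at 363.62 to 393.80 FPKM for control and 620.55 to 794.26 FPKM for SMA in total RNA. Neuronal markers (6, led by Stmn2) had 0 calls in 3 of the 4 comparisons, and Tubb3, listed at 0 in both early-symptomatic control polysomal libraries, gave the only one. Oligodendrocyte markers (5) had no call by limma at an unadjusted p under 0.05. Of 6 astrocyte markers, Slc1a2 rose in the early-symptomatic transcriptome (log2 0.66). Of 4 markers of oligodendrocyte precursors, Pdgfra (0.30) and Cspg4 (0.50) rose in the early-symptomatic transcriptome and Olig2 fell in the translatome of that stage (−0.44). Of 6 microglia markers, P2ry12 fell in both early-symptomatic fractions (−0.56 in total and −0.43 in polysomal RNA) and in the late-symptomatic transcriptome (−0.41). C1qa rose in both late-symptomatic fractions (0.62 in total and 0.47 in polysomal RNA), and Aif1 rose in the late-symptomatic transcriptome (0.29). Of 5 neural progenitor markers, Top2a fell in the early-symptomatic translatome (−0.90), and of 6 erythroid markers Hba-a2 fell in the early-symptomatic transcriptome (−0.73) and Hbb-bt in the late-symptomatic translatome (−0.62). Of 2 tested skeletal muscle markers (of 6), Mylpf fell in the late-symptomatic translatome and Acta1 was listed at 0 in both early-symptomatic control polysomal libraries, and Ckm was between 0.02 and 0.21 FPKM in every library. The part of these cell types in the enzyme changes was not tested.

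The genes most like the mean profile of the 10 enzymes over the 20 libraries, by the root mean square difference of centred log2 values, were Trappc12 (0.05), Immt (0.07), Bin1 (0.07), Sec24c (0.07) and Usp39 (0.07). Among the enzymes themselves Aldoa was nearest to that mean (0.08) and Pfkp farthest (0.56). By this distance Aldoa ranked 14 of the 15247 tested genes, and the other enzymes ranked from 636 (Ldha) to 13019 (Pfkp). The mean includes the enzymes themselves and lay between −0.15 and 0.32. A gene that varies little is near such a mean, so the distance does not show a profile shared by the enzymes.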

How the data were processed

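Reads of 100 bp were aligned by the authors to GRCm38.p4 with TopHat2 2.0.14, guided by Gencode M6, and FPKM values from Cufflinks 2.2.1 were deposited, 1 per gene and library. All 20 columns were matched to libraries by name. Depth per library is not in the table. The labels do not say whether replicates are separate mice, so p-values measure the spread between libraries, which may be technical.

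log2(FPKM + 0.1) was fitted with limma 3.58.1 in R 4.3.3 (lmFit, eBayes with a trend), keeping genes with a mean of 1 FPKM or more. Each genotype comparison used its own groups, and interactions gave ΔTE and stage differences. CuffDiff and Xtail, used in the study, need reads or counts. The code was tested on simulated data. The members, the lists and the rule for named genes (each list's called genes and its most abundant ones) were chosen with earlier results of these data known. Pseudogenes were matched by transcript sequence (BLAST 2.17.0, at least 95% identity over 100 bases). The alternatives were other pseudocounts, filters, scalings and variance models, a replicate block, a length correction (lowess, span 0.3) and leaving out each library.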

Additional observations from a re-analysis of the deposited data

Results flagged for a closer look

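The effect of SMA on Pfkp differed between the early- and the late-symptomatic stage at the unadjusted threshold, in a test of the difference itself. It was the 1 enzyme of 10 called, where 10.1% of all tested genes were called in total RNA and 13.7% in polysomal RNA, so the count is near the background. The interaction of stage and genotype was −1.03 on the log2 scale in total RNA and −1.08 in polysomal RNA (limma adjusted p = 0.486 and adjusted p = 0.287). Pfkp was 1.44 times the control mean in the 2 SMA libraries of early-symptomatic total RNA and 0.70 times in the 3 of the late stage, and in polysomal RNA 1.47 and 0.68 times. Late-symptomatic total Pfkp was not called on its own, and the interaction in total RNA was not called without SMA replicate 1 of day 5 (−0.85). Neither interaction passed adjustment over all tested genes. With the correction for transcript length, the early-symptomatic log2 changes of Pfkp were 0.30 in total and 0.35 in polysomal RNA and were not called, and the interactions were −0.80 and −0.85 and were called at the unadjusted threshold.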

How the results depend on the processing

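Of 26 calls among 120 gene and comparison pairs, none reversed under any alternative. Of 2190 alternative values 2026 kept their side of the threshold, 98 lost it and 66 gained it, and 130 values that were not called changed sign. The values that kept their side include those of pairs that were not called, so these counts do not measure how stable the calls were. All 98 losses fell on the 26 calls. In the late-symptomatic transcriptome, the calls of Tpi1 and Ldha were each kept in 4 of 6 omissions of a library. In the translatome of that stage, Pfkp kept its call in 1 of 6 omissions and Ldha in 2 of 6. The cause of these changes of side and sign was not tested. The numbers of called enzymes below compare with 1, 1, 2 and 2 in the genotype comparisons (early total, early polysomal, late total, late polysomal), 3 and 6 in control TE, 4 and 5 in the control stage comparisons and 1 and 1 in the interactions.

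In the early-symptomatic transcriptome the number was 0 without a filter, without a variance trend, with the length correction (alone or with the block) and at an unadjusted p under 0.01, and 4 in 1 model over all libraries. In the early-symptomatic translatome it was 2 with a pseudocount of 1, a mean of at least 5 FPKM or no trend, 3 with equal medians, 4 in 1 model, and 0 without a filter, with the length correction and at p under 0.01. In the late-symptomatic transcriptome it was 0 at p under 0.01, and in the translatome 1 without a filter or in 1 model and 0 at p under 0.01. Early control TE had 1 call without a filter, 5 after quantile normalization and 0 at p under 0.01, where late control TE had 3. The control stage comparisons had 2 in total RNA in 1 model and 1 in polysomal RNA at p under 0.01. The interaction in total RNA had 2 after quantile normalization and 0 at p under 0.01, and in polysomal RNA 2 with equal medians and 3 in 1 model.

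The median log2 change of the 10 genes moved from −0.0948 to 0.0103 (quantile) and 0.0491 (length correction, alone or with the block) in the early-symptomatic transcriptome, and from −0.0096 to 0.1147 and 0.0744 in the translatome. It became 0.051 for early ΔTE (quantile), 0.2728 (equal medians), 0.1132 (quantile) and 0.1718 (length, alone or with the block) for early control TE, and −0.0018 (quantile) and 0.1135 (length) for the control stage comparison of total RNA. For the interactions it became −0.0646 and −0.1437 (quantile), −0.0993 and −0.0673 (length), and −0.1184 and −0.1023 (length with the block).

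The labels do not say that total and polysomal libraries with the same number share a brain, and they were not treated as pairs. The correlations of their deviations from the group means were −0.035 and −0.039 early and −0.015 to 0.109 late. Such a correlation cannot settle whether a brain was shared, because a few markers weigh little among 15247 genes. Oligodendrocyte markers did move with the number in both fractions, summing in late-symptomatic SMA replicates 1, 2 and 3 to 411.6, 359.4 and 222.8 FPKM in total and 493.5, 419.6 and 244.6 FPKM in polysomal RNA. In late-symptomatic controls the sums were 147.12, 348.55 and 357.88 FPKM in total and 172.01, 423.58 and 384.42 FPKM in polysomal RNA. Early-symptomatic control replicates 1 and 2 had 153.14 and 256.96 FPKM in total and 168.11 and 285.74 FPKM in polysomal RNA. Those of SMA had 130.33 and 255.51 FPKM in total and 155.46 and 291.12 FPKM in polysomal RNA. With the replicate block, the number called was 0 in the early-symptomatic translatome (also with length), 1 in the late-symptomatic translatome (also with length), 1 in early control TE (Ldha, where Tpi1 and Pgk1 lost their calls) and 2 in the control polysomal stage comparison (3 with length, median 0.1449), and the median of the control total stage comparison was 0.0436. Pfkp was called in the late-symptomatic transcriptome with the block (log2 −0.51), and Ldha was not called in either late-symptomatic fraction (−0.21 and −0.17).

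Leaving out 1 library at a time gave 0 to 5 calls and medians from −0.1467 to −0.0016 in the early-symptomatic transcriptome, 0 to 3 and −0.1627 to 0.1217 in the translatome, 0 to 4 and −0.0702 to −0.0249 in the late-symptomatic transcriptome, and 0 to 3 and −0.1188 to −0.0157 in the translatome. It gave 0 to 1 and −0.0825 to 0.0263 for early ΔTE, 0 to 2 and −0.0334 to 0.0584 for late ΔTE, 1 to 6 and 0.1619 to 0.2683 for late control TE, 3 to 5 and 0.024 to 0.1228 for the total stage comparison, 1 to 5 and −0.1076 to 0.168 for the polysomal one, 0 to 4 and −0.0726 to 0.127 for the total interaction and 1 to 3 and −0.0915 to 0.1845 for the polysomal one. A lone library left in an arm was assumed to vary like the other group. Early control TE had medians of 0.0883 and 0.3635, and its test without a library was not run. FPKM carries no depth, so counting error is unknown.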
